A study of Homo sapiens with 10 samples.

Results

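The regions described here are sites of RNA polymerase II at the ends of long non-coding RNA (lncRNA) genes that stand apart from protein-coding genes. They were mapped by CUT&Tag, in which an antibody directs a transposase to cut and tag the DNA around its target. The cells were wild-type hTERT-RPE1, which are human cells of the retinal pigment epithelium made immortal with telomerase, and no treatment is named in the labels. The 10 libraries held 6 for polymerase phosphorylated on serine 5 of its tail (Pol II below) and 4 for the histone mark H3K4me1, which had been merged before deposit into 2 peak lists for each target. A Pol II region is an interval, merged over both Pol II lists, that holds a peak of each. A region became a member when it lay within 1 kb of either end of a RefSeq lncRNA gene and more than 5 kb from every end of a protein-coding gene. This held for 1199 of 30981 Pol II regions, and 1175 of 18177 lncRNA genes lay within 1 kb of a member. Of the 15834 lncRNA genes with an end more than 5 kb from coding ends, 1171 (7.4%) had a member. The members were chosen by their Pol II peaks, whose values are therefore given as a description, and H3K4me1 played no part in the choice.

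lncRNAs are transcribed by Pol II like messenger RNAs but are not translated into a known protein. Serine 5 phosphorylation marks polymerase near the start of transcription, and H3K4me1 is known from enhancers and from the flanks of active promoters. Some lncRNAs act in the nucleus, some are the precursors of microRNAs or small nucleolar RNAs, and many are known only as transcripts that begin at enhancers.

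RefSeq sequences (GRCh38.p14) were used for promoter windows of 300 bases, from 250 before to 50 after a transcript start, and 813 of the 1175 lncRNA genes near members had one. In 443 genes a member overlapped the window. The 7 windows printed here were chosen because they lie under members on which the account turns. They are MIR181A1HG and LINC00513 with matches to TGANTCA, the pattern searched for AP-1, and CYTOR and MIR4435-2HG with a shared copy. The others are SNHG5 and JPX, rich in CpG, and MIR222HG, which lacked H3K4me1. Capitals mark matches, on either strand, to the 9 motifs listed with the motif counts.
MIR181A1HG, chr1:198937380-198937679, minus strand: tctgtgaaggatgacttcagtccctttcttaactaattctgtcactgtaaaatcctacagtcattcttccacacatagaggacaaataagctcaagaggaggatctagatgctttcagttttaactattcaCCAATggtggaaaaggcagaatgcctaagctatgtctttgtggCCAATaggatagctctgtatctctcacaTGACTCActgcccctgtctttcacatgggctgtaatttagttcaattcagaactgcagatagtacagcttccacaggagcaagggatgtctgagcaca
LINC00513, chr7:130913214-130913513, plus strand: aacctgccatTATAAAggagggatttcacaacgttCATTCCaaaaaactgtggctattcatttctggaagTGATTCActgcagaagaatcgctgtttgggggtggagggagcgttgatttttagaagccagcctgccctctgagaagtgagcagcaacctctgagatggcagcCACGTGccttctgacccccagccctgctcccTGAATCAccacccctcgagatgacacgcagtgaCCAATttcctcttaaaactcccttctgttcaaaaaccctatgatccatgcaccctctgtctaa
CYTOR, chr2:87455177-87455476, plus strand: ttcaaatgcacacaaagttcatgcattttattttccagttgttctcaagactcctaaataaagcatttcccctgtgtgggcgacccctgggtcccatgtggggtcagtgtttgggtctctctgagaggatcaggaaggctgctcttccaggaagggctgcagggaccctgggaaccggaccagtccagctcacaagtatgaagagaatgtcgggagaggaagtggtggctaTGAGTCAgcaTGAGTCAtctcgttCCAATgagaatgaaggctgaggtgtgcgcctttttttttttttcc
MIR4435-2HG, chr2:111495112-111495411, minus strand: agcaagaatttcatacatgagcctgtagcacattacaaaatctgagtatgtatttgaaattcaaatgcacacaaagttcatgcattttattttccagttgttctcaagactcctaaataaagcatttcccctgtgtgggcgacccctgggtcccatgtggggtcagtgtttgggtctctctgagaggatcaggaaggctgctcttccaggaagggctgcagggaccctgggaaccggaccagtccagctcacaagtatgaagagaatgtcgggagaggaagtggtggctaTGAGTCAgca
SNHG5, chr6:85678684-85678983, minus strand: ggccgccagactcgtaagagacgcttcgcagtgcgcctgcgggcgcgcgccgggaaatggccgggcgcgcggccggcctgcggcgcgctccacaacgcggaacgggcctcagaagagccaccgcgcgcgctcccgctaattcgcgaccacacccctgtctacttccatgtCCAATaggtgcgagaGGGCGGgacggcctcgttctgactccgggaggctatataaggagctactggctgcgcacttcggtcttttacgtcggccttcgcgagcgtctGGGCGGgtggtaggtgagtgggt
JPX, chrX:73944074-73944373, plus strand: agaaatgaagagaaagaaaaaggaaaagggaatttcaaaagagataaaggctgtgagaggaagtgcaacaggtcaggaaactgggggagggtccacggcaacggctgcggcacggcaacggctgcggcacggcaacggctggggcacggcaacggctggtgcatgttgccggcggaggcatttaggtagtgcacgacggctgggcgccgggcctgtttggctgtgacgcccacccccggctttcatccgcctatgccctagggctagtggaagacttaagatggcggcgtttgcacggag
MIR222HG, chrX:45770218-45770517, minus strand: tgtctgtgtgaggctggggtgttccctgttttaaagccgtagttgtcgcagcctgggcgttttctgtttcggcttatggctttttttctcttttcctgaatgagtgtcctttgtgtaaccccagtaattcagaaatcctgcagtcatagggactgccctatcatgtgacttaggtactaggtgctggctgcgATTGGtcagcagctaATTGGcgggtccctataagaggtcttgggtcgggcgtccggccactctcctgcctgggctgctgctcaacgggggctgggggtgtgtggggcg
The JPX window held none of the 9 motifs. The windows of CYTOR and MIR4435-2HG shared an exact run of 241 bases.

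Some members lie at genes that carry microRNAs, small RNAs that repress messenger RNAs through their seed (bases 2 to 8, in capitals). The mature sequences shown, from RefSeq, are a selection from some of the host genes described in the results, and they fall into groups by seed. MIR222HG carries a pair with 1 seed, MIRLET7A1HG carries 3 let-7 members with 1 seed, and MIR181A1HG and MIR181A2HG each carry miR-181a and miR-181b, again with 1 seed.
hsa-miR-221-3p: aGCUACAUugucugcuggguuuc
hsa-miR-222-3p: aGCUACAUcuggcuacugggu
hsa-miR-181a-5p: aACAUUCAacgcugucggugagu
hsa-miR-181b-5p: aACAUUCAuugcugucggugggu
hsa-let-7a-5p: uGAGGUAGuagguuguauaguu
hsa-let-7f-5p: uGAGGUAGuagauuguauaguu
hsa-let-7d-5p: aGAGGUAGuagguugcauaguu
hsa-miR-23a-3p: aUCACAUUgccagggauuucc
hsa-miR-27a-3p: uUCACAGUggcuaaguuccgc
hsa-miR-24-3p: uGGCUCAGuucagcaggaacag
hsa-miR-31-5p: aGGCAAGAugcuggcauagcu
hsa-miR-155-5p: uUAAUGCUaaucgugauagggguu
The miR-23a, miR-27a and miR-24 seeds of MIR23AHG differ from each other, and miR-31 and miR-155 have seeds of their own.

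The labelled cell type was checked on markers. The 13 markers chosen mix retinal pigment epithelium with epithelium in general. Pol II peaks of both lists lay within 1 kb of an end in 4 of these 13 (PMEL, KRT8, KRT18 and VIM). The same held for 1 of 4 markers of other cells (TUBB3). Across all coding genes the share was 39.4%. The visual cycle genes RPE65 and RLBP1 and the pigment genes TYR and TYRP1 were without Pol II peaks of both lists there. So were BEST1, MITF, OTX2, PAX6 and TTR. The lists held 49351 and 47180 Pol II peaks and 123666 and 124465 H3K4me1 peaks. Read depth is unknown, since only peaks were used.

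Most members were under H3K4me1. Their median fold enrichment over background, as the authors deposited it, was 6.31 in Pol II list 1 and 5.51 in list 2, beside 6.03 and 5.21 over all Pol II regions. Single members ranged from 1.74 to 24.7 in list 1 and from 1.38 to 20.3 in list 2. The fold was higher in list 1 in 881 members (73.5%), and in 75.7% of all regions. Median width was 669 bp, between the 770 bp of regions at coding ends and the 587 bp of distal regions, which have no gene end within 2 kb. The region covered the end base itself in 563 members (47.0%), and the median distance from the Pol II summit to the nearest lncRNA end was 399 bp. Protein-coding ends were a median of 33.0 kb away and more than 100 kb away in 253 members, although 451 members (37.6%) lay inside a coding gene. Members above the median strength of all regions numbered 656 (54.7%), where strength is the mean over both lists of the within-list percentile of the −log10 q value.

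**Figure D1:**
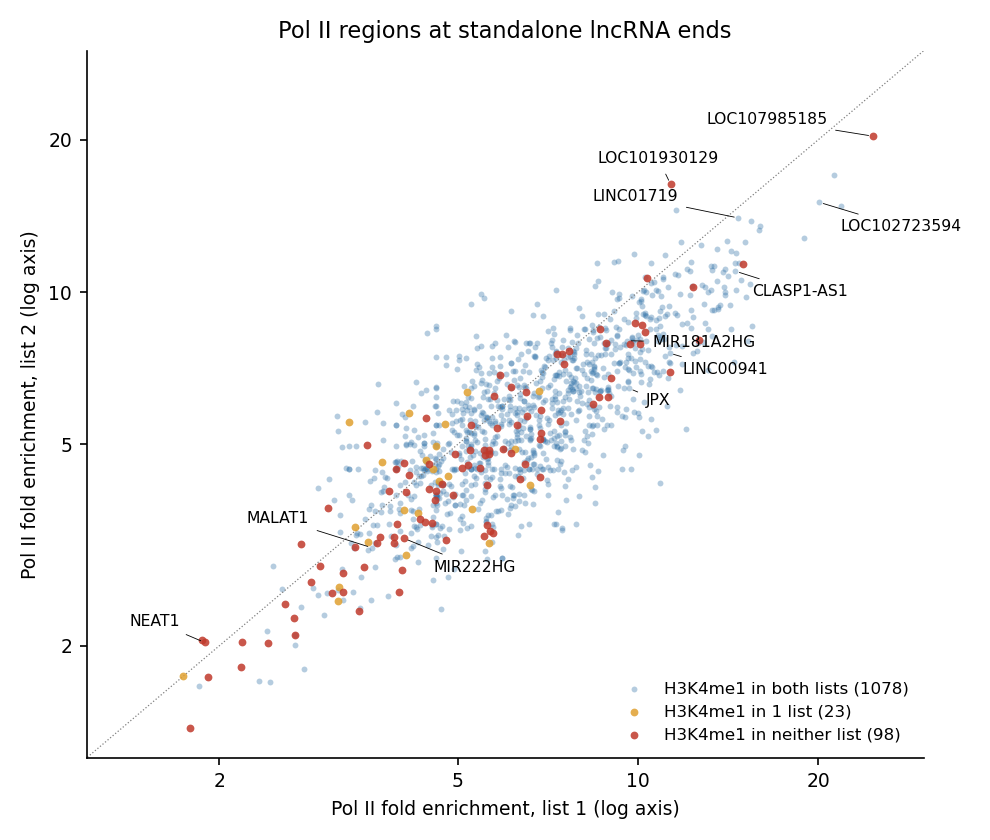
Each point is 1 of the 1199 members, with its deposited Pol II fold enrichment in list 1 on the x axis and in list 2 on the y axis, both log axes, and the dotted line marks equal values. Colours give H3K4me1 overlap: 1078 members had it in both lists, 23 in 1 list and 98 in neither, and the members without it run from NEAT1 at the low end to LOC107985185 at the high end.

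Of the 15 strongest members, 5 had a gene for a spliceosomal small nuclear RNA (snRNA), an RNA part of the splicing machinery, within 1 kb, while 8 of all 1199 members had one. At LOC124903859 (chr1:16739974-16741167) Pol II stood at 11.8-fold (list 1) and 12.6-fold (list 2), and the summit was 33 bp from the end of RNU1-4, a U1 snRNA gene. CLASP1-AS1 (chr2:121529988-121531411) reached 14.5 and 11, with RNU4ATAC, an RNA of the minor spliceosome, 75 bp from the summit. LINC01719 (chr1:146051812-146052581) reached 14.7 and 14.01, and LOC105379574 (chr1:144560252-144561445) 11.5 and 10.9, with the U1 variants RNVU1-6 and RNVU1-28 at 37 and 45 bp. In LOC112268274, at 14.1 and 10.7, the snRNA gene LOC124904613 was 26 bp away. All 8 members near snRNA genes overlapped H3K4me1 in both lists, as did 87.3% of all Pol II regions and 89.9% of all members. Pol II of the lncRNA and of the snRNA gene cannot be told apart in these 8, since peaks carry no strand.

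Other members among the 15 strongest had no snRNA gene within 1 kb. LOC102723594 (chr2:30293066-30293892) had folds of 20.1 and 15.05 at its 3′ side, and LOC107984628 (chr14:34699721-34700416) had 21.3 and 17.1. LOC101927013 had 21.8 and 14.8, LOC105370530 had 14.6 and 11.97, and LOC107986334 had 14.3 and 8.46. LOC100996756 had 14.1 and 12.6, and LOC105371842, 51 bp from the pseudogene LOC124904154, had 15.1 and 12.6. These 7 overlapped H3K4me1 in both lists. The microRNA host MIR181A2HG was the 14th strongest, with 9.59 and 8.01, and MALAT1 the 7th, with 3.59 and 3.12 over 4325 bp. The 4th strongest, at the listed tip of chromosome 18 (chr18:10001-10629, LOC107985185 and LINC02564), had 24.7 and 20.3 and no H3K4me1 peak in either list.

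Of nuclear and imprinted lncRNAs, 7 of the 11 listed genes with a standalone end had a member region, beside 7.4% of all standalone lncRNA genes. Counts over this and the other gene lists are descriptions without a test. MALAT1, an abundant nuclear RNA, had Pol II over its 3′ side with H3K4me1 folds of 5.14 and 4.56. An end of TALAM1, its antisense gene, lay 145 bp from the summit. Pol II of MALAT1 and of TALAM1 cannot be told apart there, since peaks carry no strand. NEAT1, the scaffold of paraspeckles, had 3 member regions. The region at its low-coordinate end (chr11:65422758-65425587, 2830 bp wide) had Pol II folds of 1.89 and 2.03 and no H3K4me1 peak over it, although 3268 bases within 10 kb lay in H3K4me1 peaks of both lists. At the other end 1 region had Pol II folds of 2.43 and 1.69 with H3K4me1 in both lists (2.95 and 2.13), and a neighbour had 1.79 and 1.38 with none. Both ends of NEAT1 thus had wide Pol II peaks of low fold.

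The X-linked genes JPX and FTX, which lie in the X-inactivation centre, both had Pol II at their starts. JPX had folds of 9.66 and 6.45 at its start (summit 6 bp after it) and H3K4me1 folds of 9.57 and 9.83. The FTX region, shared with LOC124905199, had 7.38 and 6.94, with H3K4me1 at 3.98 and 2.76. NORAD, known from the control of genome stability, had 5.38 and 5.06, with H3K4me1 at 6.74 and 6.009. MEG3, a maternally expressed imprinted RNA, had 3.56 and 4.23, with H3K4me1 at 3.47 and 3.61. At KCNQ1OT1, the imprinted antisense RNA of KCNQ1, Pol II was at 5.27 and 3.73, and H3K4me1 was present in list 1 (4.64) but not list 2. FIRRE, MEG8 and H19 had no Pol II peak within 1 kb of an end in either list, and MIAT had one in 1 list.

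Growth, stress and cancer lncRNAs had members in 5 of 19 genes with a standalone end, beside 7.4% of all standalone lncRNA genes. LINC00941, reported in several carcinomas, was the strongest, with 11.3 and 7.57 over 1818 bp at its start (chr12:30794842-30796659) and H3K4me1 at 3.76 and 4.96. DLEU2, which hosts miR-15a and miR-16-1, had 5.64 and 6.93, and PVT1 had 3.38 and 3.31, both with H3K4me1 in both lists. CYTOR, a lncRNA linked to the cytoskeleton and cell growth, had 4.03 and 2.82 at its start (chr2:87455097-87456141), and its relative MIR4435-2HG had 3.21 and 2.78 (chr2:111493906-111495432). Neither carried H3K4me1. As their windows share 241 exact bases, shown with the sequences, how the authors' mapping divided reads between them is uncertain. TP53TG1, CDKN2B-AS1 and CRNDE had peaks of both Pol II lists at an end but no member region. CCAT1, HOTTIP, PURPL, SAMMSON and SCHLAP1 had no Pol II peak within 1 kb of an end in either list.

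Mesenchymal lncRNAs had members in 3 of 10 genes with a standalone end, and lncRNAs of other tissues in 1 of 21, again beside 7.4% of all standalone lncRNA genes. MIR31HG, the host of miR-31, had 2.92 and 4.11 over 1608 bp (chr9:21558964-21560571) with H3K4me1 at 5.92 and 4.87. MIR222HG (chrX:45769971-45770513) had 4.07 and 3.26 without H3K4me1. NR2F1-AS1 had 4.55 and 4.47 at its 3′ side, with H3K4me1 in 1 list. The heart and muscle lncRNAs FENDRR and CARMN, and MIR503HG, were free of Pol II peaks at their ends. The other-tissue gene with a member was MIR155HG, known from lymphocytes. Its region (6.85 and 4.98, H3K4me1 6.91 and 7.70) lay at the 3′ side, with its summit 7 bp from an end of MIR155. The brain hosts MIR124-1HG and MIR124-2HG, the blood host MIR223HG and the liver lncRNA HULC were likewise free of them.

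MicroRNA hosts had members in 16 of 74 genes with a standalone end, beside 7.4% of all standalone lncRNA genes. MIR137HG and MIRLET7IHG had peaks of both Pol II lists at an end but no member region. By gene, 12 of the 16 hosts had H3K4me1 in both lists at their strongest region. Regions are named for 1 nearest lncRNA, and those of MIR4280HG and MIR4458HG carry other names. Of the 16 regions named for a microRNA host, 10 (62.5%) overlapped H3K4me1 in both lists, beside 87.3% of all Pol II regions. MIR181A2HG (9.59 and 8.01) and MIR181A1HG (7.56 and 4.97) both had H3K4me1 in both lists. MIR365BHG, host of miR-365b, had 9.21 and 6.99 with H3K4me1 at 6.86 and 6.56, and 5676 bases within 10 kb lay in H3K4me1 of both lists. MIRLET7A1HG had 5.46 and 4.40 with H3K4me1 at 5.92 and 6.70, MIR762HG had 6.85 and 5.595, and MIR4280HG had 7.31 and 6.06, all with H3K4me1 in both lists. MIR23AHG had 2.57 and 2.42 over 2433 bp (chr19:13839902-13842334) without H3K4me1, and MIR570HG had 2 regions without it, the stronger at 4.91 and 3.97. The hosts without H3K4me1 at a region were thus MIR222HG, MIR23AHG, MIR4435-2HG and MIR570HG.

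Hosts of small nucleolar RNAs, which guide the modification of ribosomal RNA, had members in 7 of 18 genes with a standalone end. This stood beside 7.4% of all standalone lncRNA genes. All 7 had H3K4me1 in both lists, as did 89.9% of all members. SNHG11, SNHG17, SNHG20, SNHG22, SNHG29 and SNHG31 had peaks of both Pol II lists at an end but no member region. SNHG30 had 8.67 and 7.503, SNHG33 8.32 and 4.54, SNHG15 7.30 and 6.86, and DANCR 6.70 and 4.80. EPB41L4A-AS1 had 6.24 and 5.09. SNHG5 had a region at each end, with 5.55 and 4.99 at the start and 3.4 and 3.34 at the 3′ end. ZFAS1 had 2.76 and 1.80 at its 3′ side, the lowest fold of the list.

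**Figure D2:**
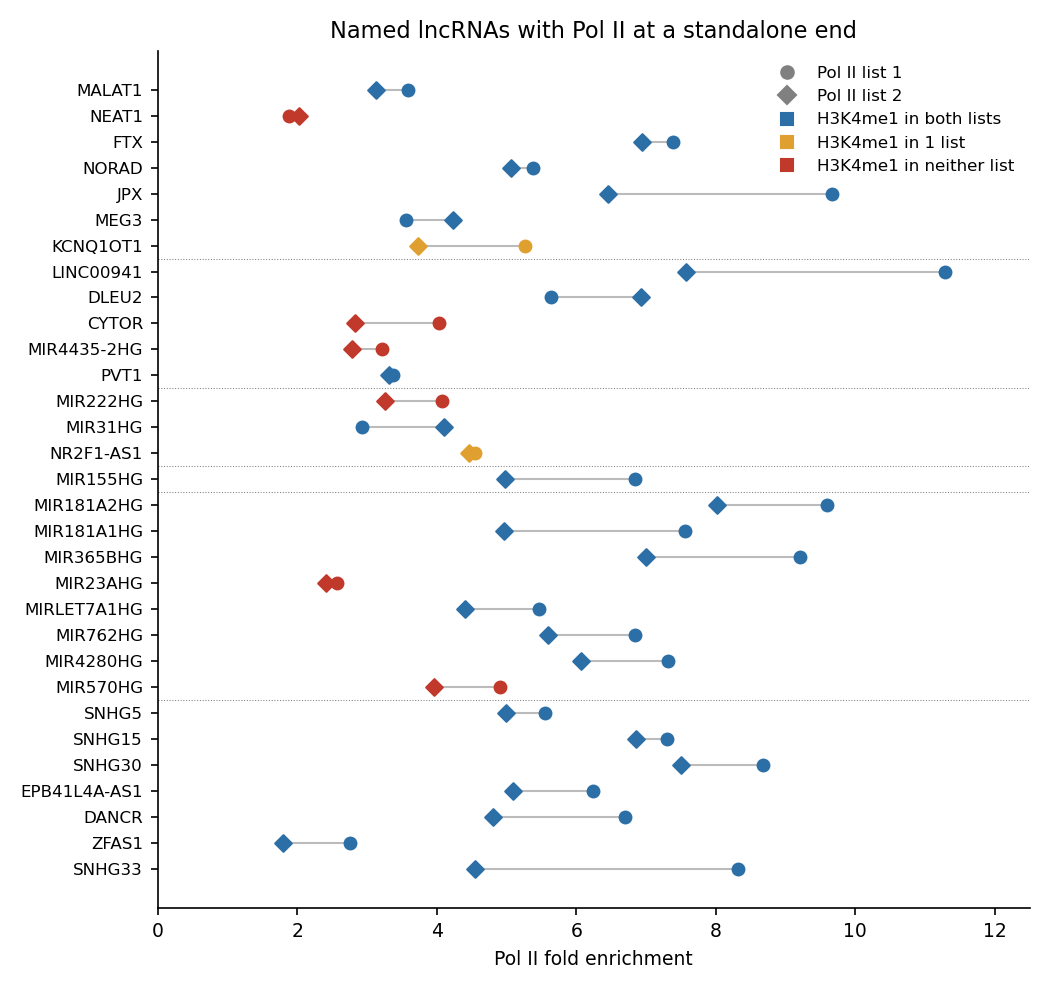
Deposited Pol II fold enrichment (x axis) at the strongest member region of each of 31 named lncRNAs, with circles for list 1, diamonds for list 2, colours for H3K4me1 overlap and dotted lines between the gene lists, from nuclear and imprinted lncRNAs at the top to snoRNA hosts at the bottom. LINC00941 had the highest value (11.3 in list 1), and NEAT1, MIR23AHG, CYTOR, MIR4435-2HG, MIR222HG and MIR570HG were without H3K4me1.

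H3K4me1 of both lists overlapped 1078 of the 1199 members (89.9%, 95% Wilson interval 88.1 to 91.5%). This stood beside 87.3% of all Pol II regions. H3K4me1 list 1 covered 1090 members (90.9%) and list 2 covered 1089 (90.8%). Where present, its median fold was 6.41 in list 1 and 6.48 in list 2. The members with most H3K4me1 around them were LOC124906066, with 5890 bases of both lists within 10 kb, MIR365BHG, LINC00880 (5451), LINC02768 (5376) and LINC02989 (5295). The median was 2157 bases at members, 2057 at distal regions, 1468 at regions of coding ends and 1888 over all Pol II regions.

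Members were compared with the 7402 Pol II regions within 1 kb of a coding end, of which 6358 (85.9%) had H3K4me1 in both lists. The difference was 4.01 points (95% interval 2.02 to 5.79, two-sided Fisher's exact test, adjusted p = 0.000258 over 4 comparisons). It rested on H3K4me1 list 2, where coding regions had 87.1%. With H3K4me1 list 1 alone, the shares were 90.9% and 90.4%, a difference of 0.542 points (Fisher's exact test, adjusted p = 0.596). With H3K4me1 counted within 1 kb of a region, instead of over it, the difference was 0.207 points (Fisher's exact test, adjusted p = 1). When H3K4me1 had to cover at least 50% of the region, the shares were 83.7% and 67.3%, a difference of 16.5 points (Fisher's exact test, adjusted p = 3.72e-33). Fisher's tests here count regions of the same lists, so their p-values do not measure spread between cultures.

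Against the 19504 distal regions, of which 17355 (89.0%) had H3K4me1 in both lists, the difference was 0.927 points (95% interval −0.958 to 2.57, Fisher's exact test, adjusted p = 0.365). Its direction depended on how peaks were counted. It was −5.35 points when only peaks above their list's median −log10 q were used (82.2% against 87.5%, Fisher's exact test, adjusted p = 8.24e-05). It was 8.66 points with Pol II list 2 alone and 8.11 with list 1 alone (Fisher's exact test, adjusted p = 2.22e-15 and 1.35e-14). The strength of Pol II moved with all of these shares. From the weakest to the strongest quartile of Pol II regions, H3K4me1 was at 84.1%, 90.2%, 92.7% and 91.3% of members, 72.5%, 84.5%, 89.0% and 93.3% of coding regions, and 78.4%, 90.0%, 93.8% and 95.1% of distal regions. In the strongest quartile the members were 3.80 points below distal regions (Fisher's exact test, adjusted p = 0.00789).

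**Figure D3:**
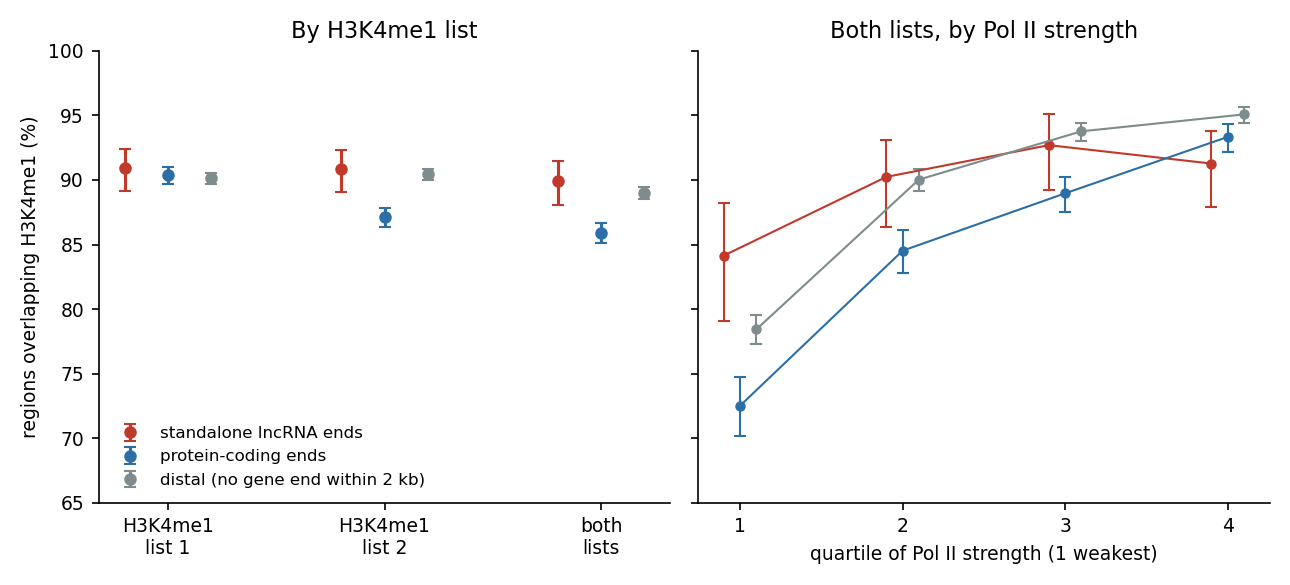
Share of Pol II regions overlapping H3K4me1 (y axis, from 65 to 100%), with 95% Wilson intervals as bars, for members (red), regions at coding ends (blue) and distal regions (grey), by H3K4me1 list on the left and by quartile of Pol II strength on the right. The 3 classes lie together in list 1, coding ends are lower in list 2, and members go from 84.1% in the weakest quartile to 91.3% in the strongest.

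Standalone lncRNA ends with Pol II carried H3K4me1 far more often than those without. Within 1 kb, 1135 of 1236 ends with Pol II peaks of both lists (91.8%) and 2560 of 26422 ends with none (9.69%) had H3K4me1 of both lists, a gap of 82.1 points (95% interval 80.4 to 83.6, two-sided Fisher's exact test, adjusted p = 4e-300, set from a p at the smallest value kept, 1e-300). It was between 75.2 and 84.7 points under the 10 alternatives run. A high share at Pol II was not particular to lncRNA ends. Counted by region, H3K4me1 of both lists lay within 1 kb of 92.0% of members and 91.8% of regions at coding ends. The share was 90.2% at distal regions and 89.9% over all Pol II regions. Coding ends with and without Pol II were not compared in this way.

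Starts and 3′ ends of lncRNAs were told apart where the strand was known from the promoter table. Peaks of both lists were within 1 kb of 606 of 8121 standalone starts (7.46%) and 252 of 9125 standalone 3′ ends (2.76%). Genes were counted otherwise, by member regions within 1 kb, so these counts do not match those of standalone ends. Among genes of known strand, 531 had a member at the start only, 205 at the 3′ end only and 77 at both. In 43 of the last, 1 region reached both ends. H3K4me1 of both lists overlapped 538 of 600 start-side members (89.7%) and 214 of 233 end-side members (91.8%). The difference was −2.18 points (95% interval −6.12 to 2.58, Fisher's exact test, adjusted p = 0.365). It became −12.2 points with peaks above the median (78.7% against 90.9%, Fisher's exact test, adjusted p = 0.00120), and 2.90 and 3.30 points with a single Pol II list, so its direction depended on the lists. For 366 members the side was unknown, and 326 of them (89.1%) had H3K4me1 in both lists.

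Along the gene, H3K4me1 was centred on the lncRNA starts that had Pol II. At the start base of these 606 starts, H3K4me1 peaks covered 80.4% (list 1) and 73.6% (list 2). Pol II peaks covered 50.7% and 60.1%, a description only, since these starts were chosen for Pol II within 1 kb. At 2 kb to either side H3K4me1 covered at most 8.91%. At the 6169 coding starts with Pol II, H3K4me1 covered 84.5% and 70.6% of start bases. At the 252 lncRNA 3′ ends, coverage was highest inside the gene: Pol II coverage reached 28.6% at 500 bp (list 1) and 36.9% at 600 bp (list 2) before the end, and H3K4me1 50.8% and 55.2% at 400 bp before it. At 7204 starts chosen to have no Pol II peak within 1 kb in either list, H3K4me1 reached 8.79% in list 1.

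**Figure D4:**
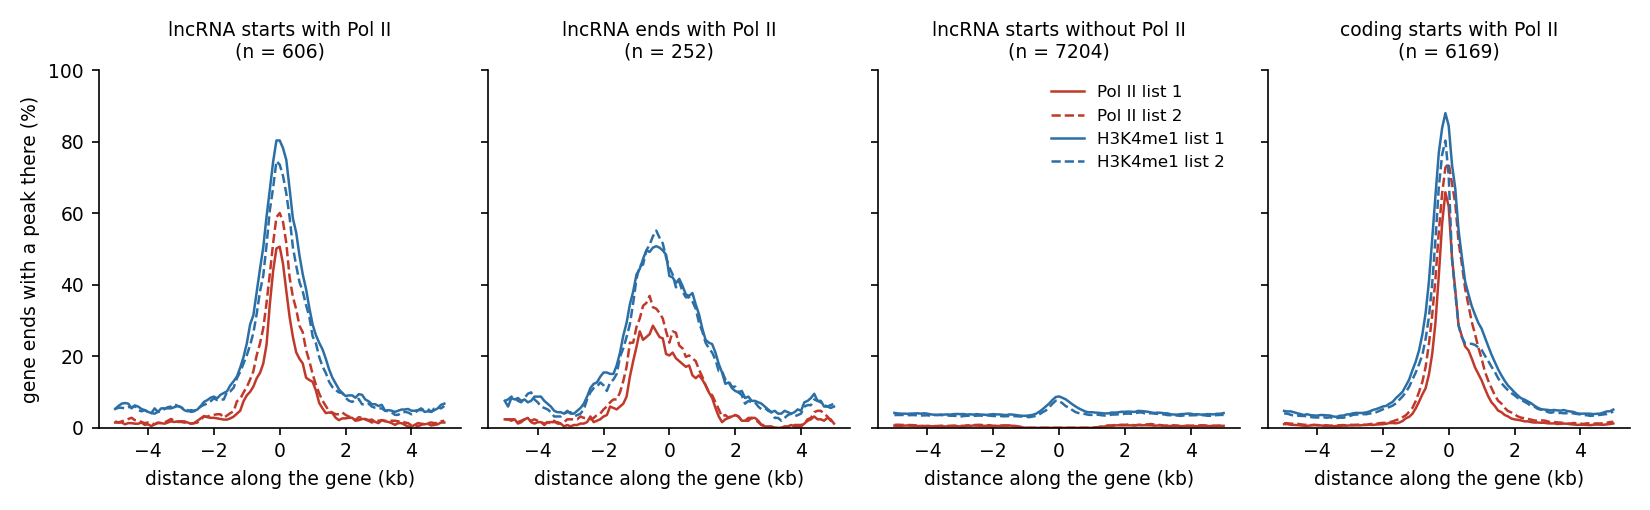
Share of gene ends (y axis, %) that have a peak at each distance (x axis, kb, negative values before the start, or inside the gene at ends), for Pol II (red) and H3K4me1 (blue), list 1 solid and list 2 dashed, at lncRNA starts and 3′ ends with Pol II, lncRNA starts without it and coding starts with it. Coverage is narrow at starts, with H3K4me1 at 80.4% in list 1 at lncRNA starts, and lower and broader at 3′ ends.

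The 98 members without H3K4me1 in either list (8.17%, beside 9.15% of all Pol II regions) were of 2 kinds by their surroundings. In 47, bases within 10 kb lay in H3K4me1 peaks of both lists, so the gap was local. Among these were NEAT1, MIR222HG (892 bases), MIR23AHG (1587), MIR4435-2HG (1408) and LOC124901475 (2188). In the other 51 no such base lay within 10 kb. Among all 1199 members, 58 had none within 10 kb, and at least 35 of these 58 had none within 100 kb. Median Pol II folds of the 98 were 5.25 and 4.48, beside 6.45 and 5.66 in members with H3K4me1 in both lists.

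The 51 isolated members were spread over many chromosomes. Chromosome 9 held 9 of them, between 39.87 and 63.82 Mb, and chromosome 21 held 8, between 5.502 and 8.108 Mb, where both chromosomes are known for near-identical repeated segments. Chromosome 2 held 7, between 87.32 and 113.6 Mb, and chromosome 5 held 6, between 25.19 and 71.29 Mb. Chromosome 3 held 4 within 195686796 to 195713590, at MIR570HG and LOC124909477. Others were close to chromosome tips, such as LOC124903814 (chr1:180549-180991, 14.99 and 11.4), LOC101930129 (chr11:175332-176073, 11.3 and 16.4) and LOC101928626 (chr1:629302-629997, 3.66 and 3.19), which overlaps MTND2P28, a nuclear copy of mitochondrial sequence. The coding genes listed nearest LOC124903814 and LOC101930129, PRAMEF22 (start 157184) and OR8U8 (start 186374), appear out of map order in the table, while PRAMEF12 starts at 12.77 Mb and OR8U1 at 56.38 Mb. The distances of these members to coding genes thus rest on doubtful placements, and both remained members without the genes listed out of order. These genes numbered 679, 273 of them lncRNAs, LOC107985185 included. Without them 1 member was lost and 1 gained, and 89.8% had H3K4me1 in both lists. LINC01409 and LOC100288069 shared 1 region (chr1:778192-778953, 12.4 and 10.2), LOC107986997 had 10.3 and 10.6, and LOC124902161 had 5.81 and 5.38.

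Promoter windows gave a measure of such copies. A window counted as copied when an exact run of 50 bases occurred in a window more than 10 kb away. This held for 15 of 27 windows under members without H3K4me1 (55.6%), 19 of 439 under members with it in both lists (4.33%) and 3.02% of all windows. The 27 windows belong to 25 genes, while 98 members lacked H3K4me1, so the share does not describe all of these members. Windows are also not separate loci, as each gene of a copied family counts, and CYTOR and NCAL1 share 1 region. Among the copied were CYTOR, MIR4435-2HG and its neighbour SOCAR, LERFS, 3 genes of the FAM88 family and 4 of chromosome 21 (LOC124904989 to LOC124904992). Windows of MIR222HG, LINC01409, LOC107986997 and LOC124902161 were not copied by this measure. The part of copied sequence in the missing H3K4me1 was not tested.

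Motifs in the promoter windows are given as shares, with no test. AP-1 is the FOS and JUN family of factors that respond to growth signals. Its motif was searched as TGANTCA, with any base in the middle. Forms with C or G in the middle were not counted apart from others, such as TGATTCA and TGAATCA in the LINC00513 window. The pattern TGANTCA was in 126 of 471 windows under members (26.8%). It was in 10.1% of 11172 lncRNA windows without a Pol II region, 5.09% of 7145 coding windows under Pol II regions and 7.69% of all 34789. CpG content moved with this share. The ratio of observed to expected CpG was over 0.6 in 42.3% of windows under members, 19.3% of lncRNA windows without Pol II and 86.9% of coding windows under Pol II. Among windows with a ratio of at most 0.6, AP-1 was in 42.3% of 272 under members, 11.9% of 9020 lncRNA windows without Pol II and 16.7% of 935 coding windows under Pol II. Above 0.6 the shares were 5.53%, 2.65% and 3.35%. A match is a description of letters and not a bound site.

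The other motifs were read the same way, on both strands, with overlaps allowed. The TEAD motif GGAATG was in 21.9% of windows under members, 17.6% of lncRNA windows without Pol II and 11.3% of coding windows under Pol II. The GC box GGGCGG was in 36.3%, 20.7% and 70.7% of the same classes, and the ETS motif CCGGAAG in 11.3%, 4.05% and 22.5%. CCAAT was in 41.2%, 34.1% and 41.8%, and TATAAA in 12.53%, 16.3% and 5.11%. The CRE motif TGACGTCA was in 4.88%, 0.671% and 3.89%, the NRF1 motif GCATGCGC in 6.37%, 1.22% and 6.14%, and the E-box CACGTG in 5.52%, 5.06% and 9.70%. Over all windows these shares were 14.1%, 45.0%, 10.2%, 34.6%, 11.6%, 1.84%, 3.02% and 7.24% in the order given.

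**Figure D5:**
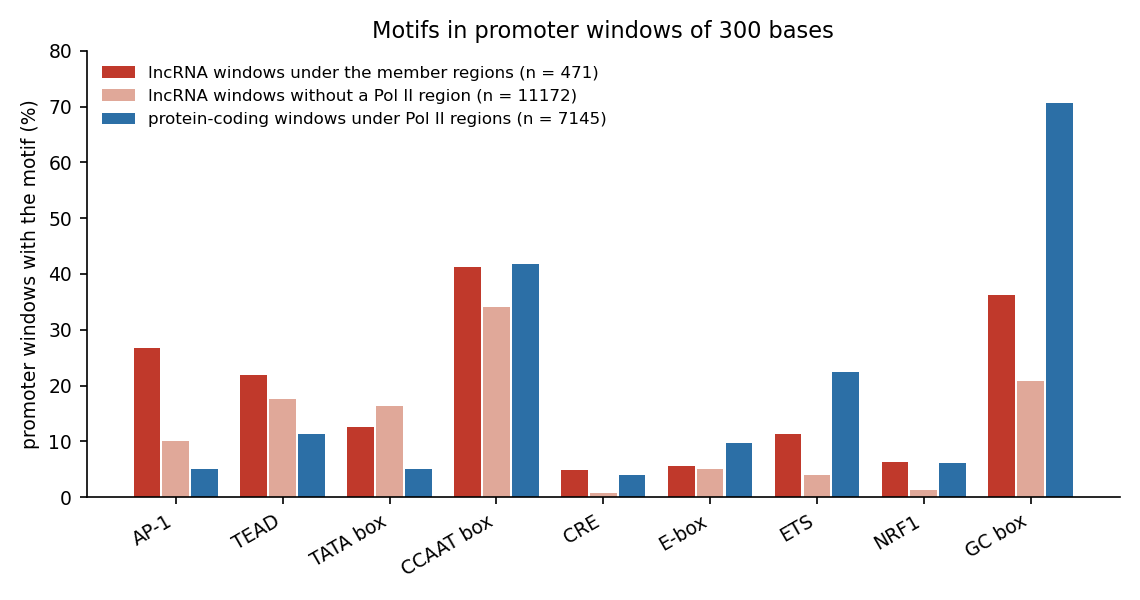
Share of promoter windows of 300 bases that hold each of 9 motifs (y axis, %), for lncRNA windows under members (red), lncRNA windows without a Pol II region (pink) and protein-coding windows under Pol II regions (blue). AP-1 stands at 26.8%, 10.1% and 5.09%, and the GC box at 36.3%, 20.7% and 70.7%.

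A few genes had several members. LINC00513 had 4, a pair at each end, with folds of 3.22 and 2.47 at the strongest, over its start, and of 2.17 and 1.81 at the neighbour, 994 bp upstream, which alone of the 4 lacked H3K4me1. NEAT1, DST-AS1, LOC124903336 and LOC401261 had 3 each, and each of these 4 genes had at least 1 region without H3K4me1. DST-AS1 had 5.44 and 4.48 at its strongest region. LOC124903336 had 2.99 and 2.30, and LOC401261 had 5.55 and 4.76.

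The members nearest the thresholds, and the regions just beyond them, had these values. Just inside 1 kb of a lncRNA end were LOC101927514 (999 bp, folds 5.56 and 4.90), VPS53-AS1 (995 bp, 5.36 and 5.44) and LINC00513 (994 bp). Just outside were regions near MCFD2-AS1 (1002 bp, 5.28 and 4.48), LOC105376577 (1005 bp, 9.55 and 8.01) and LOC105374065 (1007 bp, 3.62 and 4.09). Just beyond 5 kb from a coding end were LOC124904058 (5068 bp, 4.10 and 5.01), LOC105371376 (5102 bp, 6.66 and 4.47) and FAM218A (5154 bp, 7.76 and 4.44). Just within it, and so left out, were ERICD (4992 bp, 5.04 and 3.99), LOC124902789 (4960 bp, 5.74 and 4.71) and LOC105369968 (4912 bp, 5.55 and 3.23).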

How the data were processed

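CUT&Tag peak lists for Pol II phosphorylated on serine 5 (6 libraries) and H3K4me1 (4 libraries) in hTERT-RPE1 were used, 2 lists per target, each merged by the authors from libraries that differ in T number. R and T are not spelled out in the labels. The submitters' processing notes name BWA, SICER, deepTools and hg38, without roles or versions, while the peak caller, its threshold and any control are not stated there. Column 7 was read as the authors' deposited ratio, the fold of a peak over background, and column 9 as the deposited −log10 q value. The other deposited value used (column 10) gives where the summit lies relative to the start of its peak. No counts were used, so depth is unknown and intervals cover the counting of regions only.

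Peaks on chromosomes 1 to 22 and X were merged over both lists, and overlap meant 1 bp or more. Genes came from a RefSeq table (GRCh38.p14), and strand from a RefSeq promoter table. All 11383 lncRNA genes in both tables had their starts inside the listed gene, and other genes were checked only for map order, in which 679 were out of place. Fisher's exact test, two-sided, was applied to shares, with Benjamini-Hochberg adjustment over 4 comparisons and a threshold of 0.05. Shares carry 95% Wilson intervals and differences Newcombe intervals. The code was tested on simulated data. The work used scipy 1.17.1, pandas 2.3.3, numpy 2.4.6 and matplotlib 3.10.9 under Python 3.11.15.

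The members, gene lists and comparisons were chosen with earlier results of these data known. Named were the 15 strongest members, the 10 strongest without H3K4me1, the 5 with most H3K4me1 within 10 kb, the 5 genes with most regions, the 3 members nearest each threshold on either side, and lncRNAs of 6 lists (for microRNA hosts the 10 strongest). Names given as members of a group without H3K4me1 or with a copied promoter were chosen after their values were seen. Alternatives were each list alone, peaks above the median, other windows and overlaps, quartiles of strength, and regions outside coding genes.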

Additional observations from a re-analysis of the deposited data

How the results depend on the processing

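No paired analysis was possible because no groups of samples were compared. The comparisons were instead repeated with each list alone. The number of members was 736 with peaks above the median and 563 when the region had to cover the end base. lncRNA genes with peaks of both lists within 1 kb of a standalone end numbered 1136, and 705 and 401 under the same alternatives. The share of members with H3K4me1 (89.9%) ranged from 82.9% to 90.9% when 1 list was left out. It was 82.2% with peaks above the median, 83.7% when H3K4me1 covered 50% of the region, 87.0% when it covered the summit, 92.0% when it lay within 1 kb, 91.9% within 500 bp of an end, 92.9% at the end base, 90.6% beyond 10 kb from coding ends and 91.0% measured from the summit.

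The difference from coding ends ranged from 0.542 to 7.002 points when 1 list was left out, with 0.542 for H3K4me1 list 1 alone and 3.71 for list 2 alone. It was 12.8 with peaks above the median, 16.5 with 50% cover, 9.27 at the summit, 7.23 outside coding genes, 0.207 with H3K4me1 within 1 kb, 0.100 at the end base, and 11.6, 5.71, 3.73 and −2.06 from the weakest to the strongest quartile. The difference from distal regions ranged from 0.393 to 8.66 points when 1 list was left out. It was −5.35 with peaks above the median, −3.04 with 50% cover, −0.701 at the summit, 5.71, −1.07 and −3.80 in the 1st, 3rd and 4th quartiles, and −1.18 outside coding genes. The difference between start and end sides ranged from −3.66 to 3.30 points when 1 list was left out, and it was −12.2 with peaks above the median and 0.129 with H3K4me1 within 1 kb. The causes were not tested. The difference between lncRNA ends with and without Pol II kept its direction and its side of the threshold under all 10 alternatives run. An alternative chosen after seeing the data, with only genes listed in map order, gave 89.8% of members with H3K4me1, 3.91 points from coding ends and 0.851 from distal regions.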

Other observations

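By the form of their symbols, 719 members were named for LOC genes, 180 for antisense genes, 178 for LINC genes and 14 for divergent genes. H3K4me1 of both lists overlapped 90.8%, 89.4%, 92.7% and 85.7% of these. Of standalone genes, 6.29% of the LOC, 11.9% of the antisense, 8.14% of the LINC and 4.31% of the divergent class had Pol II. In the 81 members with other symbols, among them MALAT1, NEAT1 and JPX, the H3K4me1 share was 84.0%, and 14.05% of the 541 such genes had Pol II.

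Other small RNA genes and pseudogenes lay within 1 kb of some members. A tRNA gene was near 7 and a snoRNA gene near 7, all with H3K4me1 in both lists, as were 89.9% of all members. A microRNA gene was near 16, of which 10 (62.5%) had H3K4me1 in both lists and 5 in neither. A pseudogene not listed as transcribed was near 20, of which 18 (90%) had it in both lists. A transcribed pseudogene was near 32, of which 22 (68.8%) had H3K4me1 in both lists. Members without H3K4me1 in either list were 8.17% of all members. By chromosome they were 8 of 19 on chromosome 21 and 4 of 19 on X, the highest shares. At the low extreme there were none of 63 on chromosome 10, 45 on chromosome 4 or 22 on chromosome 22. These differences were not tested.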
